A study of Homo sapiens with 13 samples.

Results

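Total RNA of K562 cells was compared between 8 h and 4 h of a chase that followed metabolic labelling. The comparison rests on 4 of the 13 libraries of the series, those titled as the 2 replicates of 4 h and the 2 replicates of 8 h, and on the counts of all reads per human gene, whether labelled or not. Of the 59204 human genes listed, 16255 passed the filter on low counts and were tested. K562 is an established line from chronic myeloid leukaemia that carries the BCR-ABL1 fusion and has erythroid features, among them the production of fetal and embryonic globins. Both groups had received 30 µM 4-thiouridine (4sU), which cells incorporate into new RNA in place of uridine, during a 12 h pulse with fresh medium every 3 h. After a wash the medium held 3 mM uridine, so that the groups differ in the time spent in that medium, 4 h or 8 h, and share everything else the labels name. A single library of cells without 4sU serves as a reference level, and the libraries of the other chase times enter the estimate of the spread.

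The amount of an mRNA at any time is the balance of its synthesis and its decay. When synthesis of a gene changes, a short-lived mRNA moves to its new level quickly and a long-lived one slowly. Counts of all reads therefore record old and new molecules together, while labelled reads are taken to stem from molecules made during the pulse. Several of the gene groups below are controlled together: ATF4 drives amino acid genes under stress, NRF2 drives antioxidant genes, SREBP2 drives sterol synthesis, and GATA1, TAL1 and KLF1 drive the erythroid program.

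The libraries of 4 h held 12798505 and 11180308 counts and those of 8 h 11951128 and 11739545, and a gene with 0 counts could hold up to 2.34e-05% to 2.68e-05% of them (3 counts, counting error only). The labelled share of all counts was 26.3% ± 0.0495 (SD, n = 2) at 4 h and 16.76% ± 0.184 at 8 h. Counts of human RNA per count of Drosophila spike-in RNA were 13.38 ± 0.0778 (SD, n = 2) at 4 h and 14.57 ± 0.856 at 8 h. The libraries of 4 h had 13.33 and 13.44 and those of 8 h 13.96 and 15.17, without overlap. The difference of 1.18 was about as large as the gap between the 2 libraries of 8 h. An exact two-sided permutation test gave p = 0.33, the smallest that 2 libraries against 2 allow, so it cannot decide whether the ratio differs. The spike-in composition separated the replicates of 4 h: on the first component of 648 spike-in genes, replicate 1 of 4 h lay at −3.18, beside the libraries of 0 to 2 h, and replicate 2 at 2.70, beside those of 8 h at 2.57 and 5.38. The replicates of 4 h also differed more from each other than the other pairs, with a chi-square per degree of freedom of 7.61 against 3.72 to 4.07. Results that rest on replicate 1 of 4 h are therefore also given without it. Whether the replicates came from separate cultures is not in the labels, and the p-values reflect only the spread between libraries, which may be technical. The erythroid markers that define the line were present, and HBG1, HBG2 and HBE1 (embryonic and fetal globins) are described below. Defining markers of lymphocytes and monocytes were near 0: CD3E, MS4A1 and NKG7 had 1 count each over the 4 libraries, CD14 had 26 and S100A8 had 2, while ELANE had 159 and CD3D 998.

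Between 4 and 8 h of chase, 2216 genes rose and 2160 fell (edgeR quasi-likelihood test, adjusted p under 0.05), which is 13.6% and 13.3% of the genes tested. Most changes were small. The median size among the genes that rose was 0.49 on the log2 scale and among those that fell 0.50, and 1409 and 1277 of them changed by less than 1.5-fold. A change of at least 2-fold was seen in 233 genes that rose and in 411 that fell. The libraries of 8 h lay wholly above those of 4 h in 2212 of the genes that rose and wholly below in 2095 of those that fell, against 29% and 30.7% of all genes tested. Among the 3394 genes with a mean of at least 50 CPM (a gene's counts scaled to an effective library size of 1000000), 51.2% were called, 27.5% higher and 23.7% lower. Lists below that hold mostly abundant genes are to be read beside these shares.

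Set against the spike-in instead of the bulk of human genes, the balance of the calls moved. With spike-in totals as library sizes the median log2 change of all genes went from −0.03 to 0.14, a shift of 0.165. On that scale 3056 genes (18.8% of those tested) were called higher and 784 (4.82%) lower. Counts of list members on the spike-in scale below are to be read beside these shares. The share of calls that were rises went from 50.6% to 79.6%. All 2216 rises stayed called on that scale, and 783 of the 2160 falls did. Values below are relative to the bulk of human genes unless the spike-in scale is named. Without replicate 1 of 4 h, 1426 of the rises and 1273 of the falls stayed called, and 2216 and 2142 kept their sign. In that fit 1517 genes (9.47%) were called higher and 1403 (8.76%) lower. Without replicate 2 of 8 h 1361 genes were called higher and 1378 lower. In bulk RNA, fewer cells of a kind and less RNA per cell cannot be told apart.

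**Figure D1:**
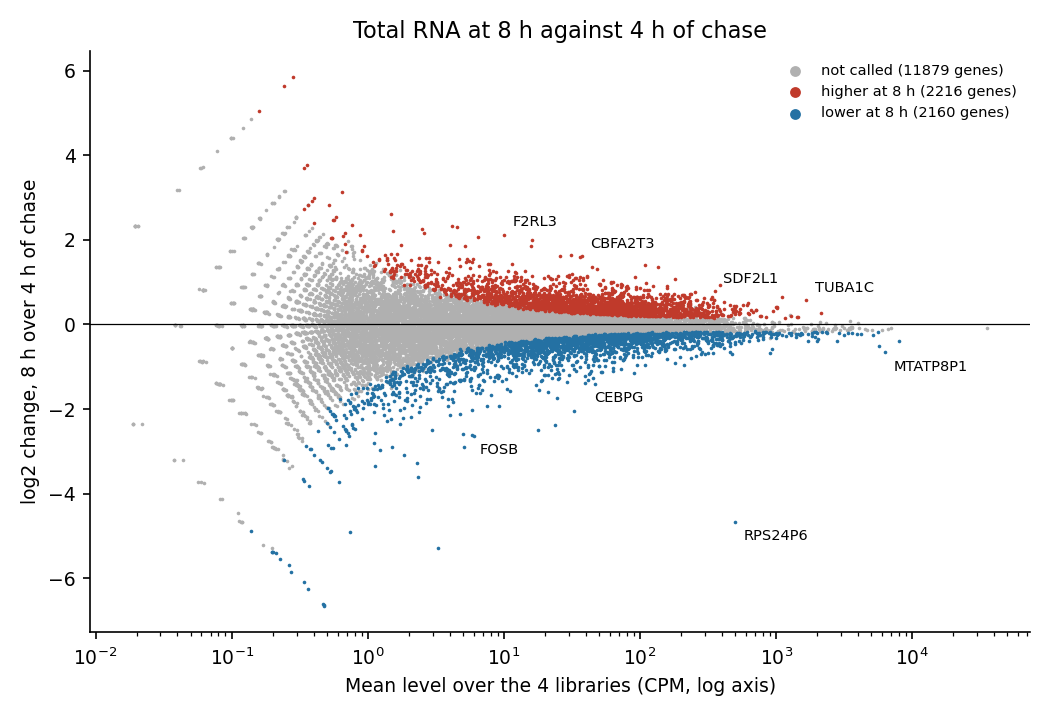
Log2 change of each of the 16255 genes tested between 4 and 8 h of chase (vertical axis) against its mean level over the 4 libraries (CPM, log axis). Red points are the 2216 genes called higher and blue points the 2160 called lower; the processed pseudogene RPS24P6 lies far below all other genes of its level, at −4.67.

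The largest rise among genes with a mean of at least 5 CPM was that of F2RL3, which encodes a thrombin receptor of platelets and megakaryocytes (chromosome 19, 16888860 to 16892606, GENCODE 29 span on GRCh38). It had 3.62 and 3.89 CPM at 4 h and 14.7 and 18.1 CPM at 8 h, a log2 change of 2.12 ± 0.19 (SE; adjusted p = 9.4e-09). Its level without 4sU was 25.8 CPM in the single library, above both libraries of 8 h relative to the bulk of human genes. That library had 9.68 human counts per spike-in count, against 13.96 and 15.17 at 8 h. Comparisons with it, here and below, were not made on the spike-in scale. ID2 (chromosome 2, 8678845 to 8684453), an inhibitor of basic helix-loop-helix transcription factors, had 6.57 and 7.08 CPM at 4 h and 20.7 and 28.8 CPM at 8 h, a log2 change of 1.86 ± 0.16 (adjusted p = 6.3e-09). CBFA2T3 (chromosome 16, 88874858 to 88977204), a corepressor in the complex of TAL1 and GATA1, had 19.3 and 17.4 CPM at 4 h and 57.1 and 55.9 CPM at 8 h, a log2 change of 1.62 ± 0.10 (adjusted p = 3.5e-11). In all 3 genes both libraries of 8 h lay above both libraries of 4 h by more than the replicates differed.

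Others among the 10 largest rises were GTF2H4, a subunit of the general transcription and DNA repair factor TFIIH, the adhesion molecule ICAM2 and SPC25, a part of the kinetochore complex NDC80. GTF2H4 had 14.5 and 15.7 CPM at 4 h and 44.4 and 50.1 CPM at 8 h (log2 change 1.65 ± 0.11, adjusted p = 9.2e-11). ICAM2 had 12.3 and 13.2 CPM at 4 h and 37.8 and 40.01 CPM at 8 h (log2 change 1.61 ± 0.12). SPC25 had 19.2 and 16.6 CPM at 4 h and 47.1 and 61.95 CPM at 8 h (log2 change 1.60 ± 0.13). The list was completed by TLCD1 (log2 change 2.08 ± 0.25), the pseudogene RPL38P5 (1.99 ± 0.17), CCDC71 (1.86 ± 0.26) and SEC14L6 (1.56 ± 0.29), all with libraries that did not overlap. At 8 h the means of SEC14L6 (7.98 CPM) and RPL38P5 (25.6 CPM) lay above their levels without 4sU, 0.619 and 20.7 CPM, and those of the other 8 lay below.

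Among the abundant genes with a rise of at least 0.5 on the log2 scale, the tubulin TUBA1C (chromosome 12, 49188736 to 49274603) led with 1272 and 1408 CPM at 4 h and 1868 and 2116 CPM at 8 h, a log2 change of 0.57 ± 0.07 (adjusted p = 3.2e-07). Tubulin genes are near-identical in sequence, and the counts of single members are uncertain. SDF2L1 (chromosome 22, 21642261 to 21644298), a chaperone component of the endoplasmic reticulum, had 242 and 276 CPM at 4 h and 427 and 472 CPM at 8 h (log2 change 0.80 ± 0.07, adjusted p = 8.3e-09). UTP4 is described with its promoter below. The 5 were completed by 2 genes without a symbol, the processed pseudogene ENSG00000242951 (log2 change 0.64 ± 0.07) and the long noncoding RNA ENSG00000266976 (0.94 ± 0.07).

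**Figure D2:**
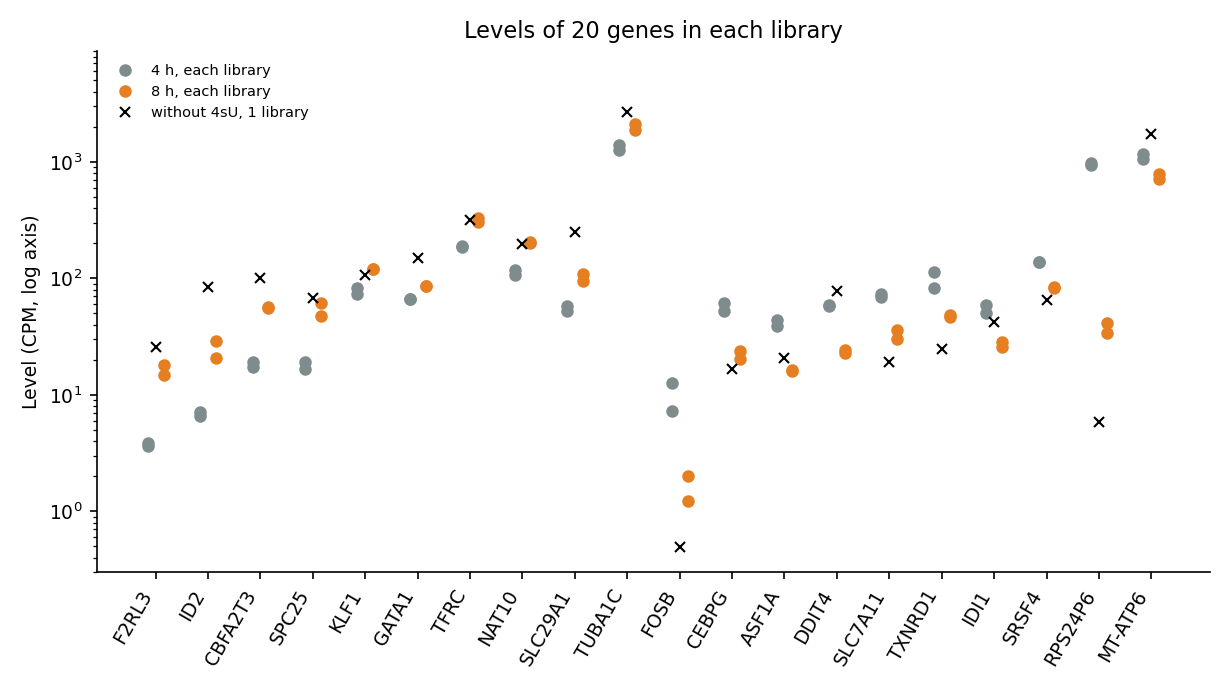
Level (CPM, log axis) of 20 genes in each library of 4 h (grey points) and 8 h (orange points), with the single library without 4sU as a cross. For the 10 genes from F2RL3 to TUBA1C both points of 8 h lie above both of 4 h, and for the 10 genes from FOSB to MT-ATP6 both lie below.

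The list of erythroid transcription factors also holds the receptor gene EPOR. Of its 24 tested members, 11 rose (45.8%, against 13.6% of all genes) and 5 fell (20.8%, against 13.3%), with a median log2 change of 0.27. The counts were 11 and 5 as well without replicate 1 of 4 h. KLF1, which activates globin and red cell genes, had 73.1 and 82.6 CPM at 4 h and 119.7 and 119.9 CPM at 8 h (log2 change 0.62 ± 0.08, adjusted p = 3.5e-06). GATA1, the central factor of the lineage, had 66.8 and 66.95 CPM at 4 h and 85.8 and 86.2 CPM at 8 h (log2 change 0.36 ± 0.08, adjusted p = 0.0012). In both genes the replicates differed by less than the times did.

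LDB1, the protein that bridges the complex of GATA1 and TAL1 between enhancer and promoter, had the largest rise of the list after CBFA2T3, with 7.10 and 7.08 CPM at 4 h and 14.5 and 14.4 CPM at 8 h (log2 change 1.02 ± 0.16). LYL1, a close relative of TAL1, had 84.4 and 88.4 CPM at 4 h and 152 and 174 CPM at 8 h (log2 change 0.92 ± 0.08, adjusted p = 4.4e-09). NFE2, which drives late erythroid and platelet genes, rose by 0.87 and the repressor GFI1B by 0.81. TAL1 itself had 112 and 121 CPM at 4 h and 154 and 171 CPM at 8 h (log2 change 0.48 ± 0.07), and MYB, a factor of proliferating progenitors, had 263 and 286 CPM at 4 h and 362 and 378 CPM at 8 h (log2 change 0.43 ± 0.07). Members that fell include BACH1, a repressor of haem-regulated genes, with 24.6 and 23.5 CPM at 4 h and 15.8 and 12.6 CPM at 8 h (log2 change −0.76 ± 0.12, adjusted p = 4.7e-05), and EPOR, the receptor of erythropoietin, with 7.78 and 8.31 CPM at 4 h and 4.82 and 5.42 CPM at 8 h (log2 change −0.65 ± 0.19). The fall of EPOR was not called without replicate 2 of 4 h (adjusted p = 0.0504), without replicate 1 of 8 h (0.099) or on the spike-in scale (0.11).

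Globins and proteins of the red cell membrane moved in both directions: of 33 tested, 6 rose (18.2%) and 10 fell (30.3%), with a median of −0.14 that became 0.03 on the spike-in scale, where 1 member was called lower. HBG1 had 4121 and 4309 CPM at 4 h and 3450 and 3709 CPM at 8 h and HBG2 had 5533 and 5667 CPM at 4 h and 4591 and 4881 CPM at 8 h, each a log2 change of −0.24 with an adjusted p of 0.012 and 0.0092. Embryonic HBE1 had 560.0 and 586 CPM at 4 h and 472 and 498 CPM at 8 h (log2 change −0.24 ± 0.07). HBG1 and HBG2 are near-identical copies, and their split is uncertain. HBG1 was not called without replicate 2 of 4 h (adjusted p = 0.055), without replicate 1 of 8 h (0.13) or on the spike-in scale (0.61), HBG2 without replicate 1 of 8 h (adjusted p = 0.095) or on the spike-in scale (0.55) and HBE1 without replicate 2 of 4 h (adjusted p = 0.0543), without replicate 1 of 8 h (0.093) or on the spike-in scale (0.63). Theta globin HBQ1 had 13.5 and 16.4 CPM at 4 h and 8.16 and 9.04 CPM at 8 h (log2 change −0.80 ± 0.16, adjusted p = 0.00036). Members of the membrane skeleton that rose were ADD2, a beta adducin, with 27.9 and 28.2 CPM at 4 h and 45.8 and 45.3 CPM at 8 h, and EPB41, protein 4.1, with 173 and 164 CPM at 4 h and 235 and 249 CPM at 8 h. The receptor that takes up iron, TFRC (chromosome 3, 196027183 to 196082189), had 189 and 185 CPM at 4 h and 307 and 328 CPM at 8 h, a log2 change of 0.76 ± 0.06 (adjusted p = 3.1e-09).

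Ribosome biogenesis genes, whose products make ribosomal RNA and assemble the subunits in the nucleolus, were the list with the most members that rose. Of 77 tested, 37 rose (48.1%) and 6 fell (7.79%), with a median of 0.23, and without replicate 1 of 4 h the counts were 37 and 5. Among the 58 members with at least 50 CPM 30 rose, against 27.5% of all genes of that level. In 27 of the 64 members with an annotated promoter (42.2%) a window from 250 bases before to 50 after a start site held CACGTG, the E-box that MYC and MAX bind, which reads the same on both strands. The motif was found in 8.77% of all genes with a promoter. Of the 32 members with a promoter that rose 17 held it, as did 2 of the 5 that fell. The windows of UTP4 and NAT10, which both rose, are given with the E-box in capitals, read in the direction of the gene from RefSeq promoters on GRCh38.p14. They lie at chr16:69132549-69132648 (plus strand) and chr11:34105529-34105628 (plus strand), and the bases shown end just before the annotated start site.
UTP4: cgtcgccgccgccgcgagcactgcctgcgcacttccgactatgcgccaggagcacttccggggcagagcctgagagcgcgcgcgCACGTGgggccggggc
NAT10: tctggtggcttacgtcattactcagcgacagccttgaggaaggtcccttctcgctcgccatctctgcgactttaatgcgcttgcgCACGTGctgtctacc
A match is a description of the letters and says nothing of binding in these cells.

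UTP4, a part of the complex that processes the small subunit RNA, had 337 and 340.3 CPM at 4 h and 466 and 519 CPM at 8 h (log2 change 0.54 ± 0.06, adjusted p = 5.7e-07). NAT10, which acetylates ribosomal RNA, had 108 and 119 CPM at 4 h and 202 and 206 CPM at 8 h (log2 change 0.85 ± 0.07, adjusted p = 2.1e-09). PPAN, a factor of the large subunit, had the largest rise of the list, with 18.3 and 20.1 CPM at 4 h and 44.2 and 43.8 CPM at 8 h (log2 change 1.20 ± 0.12). HEATR1, which acts in transcription and processing of ribosomal RNA, had 40.7 and 43.4 CPM at 4 h and 82.3 and 87.7 CPM at 8 h (log2 change 1.01 ± 0.09). Against the direction of most members, MPHOSPH10, a small subunit factor, had 103 and 98.8 CPM at 4 h and 64.9 and 60.7 CPM at 8 h (log2 change −0.68 ± 0.08, adjusted p = 2.3e-07), and BRIX1, a large subunit factor, had 209 and 160.4 CPM at 4 h and 133 and 107 CPM at 8 h (log2 change −0.62 ± 0.10). The libraries of 4 and 8 h did not overlap in any of these 6 genes.

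Genes of uridine and pyrimidine use were listed because the chase medium holds uridine. Of 17 tested, 6 rose (35.3%) and 2 fell (11.8%), with a median of 0.19. The nucleoside transporters SLC29A1 and SLC29A2, through which uridine and its analogues enter cells, both rose. SLC29A1 (chromosome 6, 44219505 to 44234151) had 52.6 and 57.5 CPM at 4 h and 95.96 and 108 CPM at 8 h (log2 change 0.89 ± 0.08, adjusted p = 1.2e-08). SLC29A2 had 12.7 and 11.8 CPM at 4 h and 21.5 and 24.1 CPM at 8 h (log2 change 0.89 ± 0.14, adjusted p = 1.8e-05). Both stayed below their levels without 4sU, 249.8 and 91.1 CPM. CAD, the enzyme that starts pyrimidine synthesis, rose by 0.73 from 39.2 and 49.4 CPM to 72.5 and 74.3 CPM. UCK2, the kinase that phosphorylates uridine, moved the other way, with 283 and 272 CPM at 4 h and 184 and 185 CPM at 8 h (log2 change −0.59 ± 0.07, adjusted p = 2.2e-07).

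Of 63 mitosis genes tested, 24 rose (38.1%) and 12 fell (19%), with a median of 0.10. The calls were 19 higher and 8 lower without replicate 1 of 4 h, and 30 and 3 on the spike-in scale. Among the 32 members with at least 50 CPM 15 rose and 7 fell, against 27.5% and 23.7% of all genes of that level. INCENP, which anchors the chromosomal passenger complex, had 20.02 and 24.9 CPM at 4 h and 36.4 and 37.5 CPM at 8 h (log2 change 0.72 ± 0.12), and TOP2A, the topoisomerase that untangles chromosomes, had 87.5 and 91.5 CPM at 4 h and 143 and 142 CPM at 8 h (log2 change 0.67 ± 0.08, adjusted p = 3.1e-07). The kinesins KIF18A and KIF23 fell. KIF18A had 14.9 and 14.4 CPM at 4 h and 6.84 and 5.18 CPM at 8 h (log2 change −1.28 ± 0.16, adjusted p = 1.1e-06) and KIF23 had 63.4 and 52.1 CPM at 4 h and 35.9 and 33.6 CPM at 8 h (log2 change −0.73 ± 0.10). CCNB1, the mitotic cyclin, had 214 and 233 CPM at 4 h and 166 and 182 CPM at 8 h (log2 change −0.36 ± 0.07), a fall that was not called on the spike-in scale (adjusted p = 0.17).

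Factors of nonsense-mediated decay, which removes mRNAs with premature stop codons, rose in 10 of 19 (52.6%) and fell in 2 (10.5%), with a median of 0.22. Without replicate 1 of 4 h 5 members rose. UPF1, the helicase of the pathway, had 129.5 and 144 CPM at 4 h and 193 and 209 CPM at 8 h (log2 change 0.56 ± 0.07, adjusted p = 1.6e-06), and CASC3, a member of the exon junction complex, had 111 and 112 CPM at 4 h and 153 and 158 CPM at 8 h (log2 change 0.48 ± 0.07). SMG8 had 54.8 and 50.2 CPM at 4 h and 37.9 and 38.8 CPM at 8 h (log2 change −0.46 ± 0.10), not called on the spike-in scale (adjusted p = 0.13). Cytosolic heat shock proteins rose in 9 of 26 (34.6%) and fell in 5 (19.2%), with 2 called lower on the spike-in scale. Among the 19 with at least 50 CPM 9 rose and 3 fell, against 27.5% and 23.7% of all genes of that level. The HSP90 cochaperone AHSA1 had 168 and 171 CPM at 4 h and 265 and 267 CPM at 8 h (log2 change 0.65 ± 0.07, adjusted p = 1.3e-07), and BAG3, a cochaperone of HSP70 in stressed cells, had 37.1 and 27.9 CPM at 4 h and 22.6 and 14.7 CPM at 8 h (log2 change −0.80 ± 0.15, adjusted p = 0.0002; −0.53 without replicate 2 of 8 h).

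**Figure D3:**
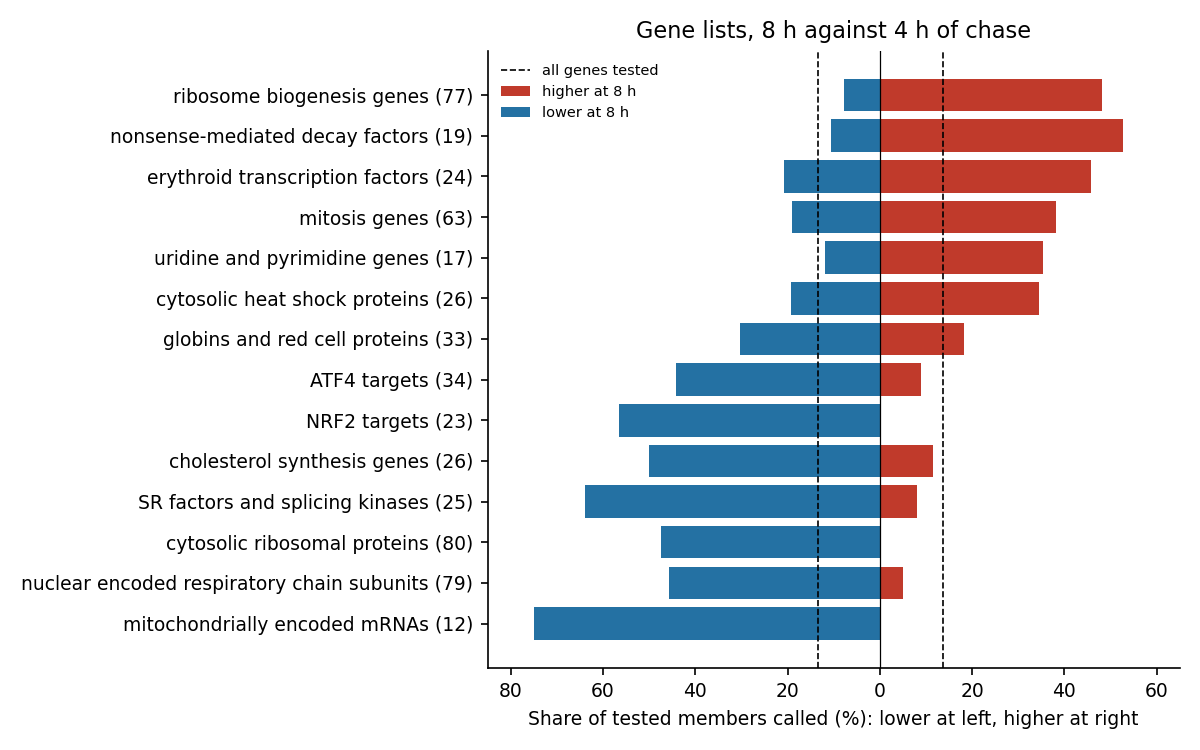
Share of the tested members of 14 gene lists that were called higher (red, to the right) or lower (blue, to the left) at 8 h than at 4 h, in percent, with the number tested in brackets. Dashed lines mark 13.6% and 13.3%, the shares of all genes tested; ribosome biogenesis genes lie to the right with 48.1% higher, and mitochondrially encoded mRNAs to the left with 75.0% lower.

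Among protein-coding genes with a mean of at least 5 CPM, the largest fall was that of FOSB, a part of the transcription factor AP-1 (chromosome 19, 45467995 to 45475179). It had 12.5 and 7.34 CPM at 4 h and 2.02 and 1.23 CPM at 8 h, a log2 change of −2.61 ± 0.27 (adjusted p = 7.2e-08). CEBPG (chromosome 19, 33373330 to 33382686), a bZIP protein that pairs with ATF4, had 61.9 and 52.9 CPM at 4 h and 23.6 and 20.2 CPM at 8 h, a log2 change of −1.39 ± 0.10 (adjusted p = 5.2e-10). ASF1A (chromosome 6, 118894220 to 118909167), a histone chaperone, had 43.9 and 39.3 CPM at 4 h and 16.3 and 16.2 CPM at 8 h, a log2 change of −1.36 ± 0.11 (adjusted p = 1.4e-09). DDIT4 (chromosome 10, 72273920 to 72276036), an inhibitor of mTORC1, had 59.5 and 58.1 CPM at 4 h and 24.1 and 23.0 CPM at 8 h, a log2 change of −1.32 ± 0.11 (adjusted p = 3.1e-09). In these 4 genes both libraries of 8 h lay below both of 4 h. CRTC2, a coactivator of CREB, and PANK4, of the pantothenate kinase family, fell by 1.62 and 1.63. FOSB and PANK4 were among the 10 largest falls, and the other protein-coding genes were picked out after values had been seen, because 6 of the 10 largest falls were annotated processed pseudogenes and 2 were noncoding RNAs, CARD8-AS1 with 15.6 and 8.05 CPM at 4 h and 3.58 and 2.63 CPM at 8 h (log2 change −1.94 ± 0.24) and APTR with 16.8 and 7.43 CPM at 4 h and 4.74 and 2.96 CPM at 8 h (log2 change −1.66 ± 0.28, −0.94 without replicate 1 of 4 h).

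Pseudogenes are copies of genes that in most cases make no protein. Of 2267 tested, 362 were called lower (16%, near the 13.3% of all genes) and 60 higher (2.65%, against 13.6%). Their median log2 change was −0.26, and −0.22 without replicate 1 of 4 h, against −0.03 and −0.02 of all genes. Their reads can belong to the parent gene, since the way reads with several matches were counted is not given in the sources used here. RPS24P6 (chromosome 2, 94912432 to 94912831), named after the ribosomal protein gene RPS24, had the largest fall among genes with a mean of at least 5 CPM, with 932 and 979.7 CPM at 4 h and 34.1 and 41.3 CPM at 8 h, a log2 change of −4.67 ± 0.10 (adjusted p = 1.8e-22). It had 5.82 CPM without 4sU and a mean of 1383 CPM at 0 h. Others of the 6 rest on replicate 1 of 4 h: RPL35AP36 had 17.1 and 3.45 CPM at 4 h and 2.33 and 0.986 CPM at 8 h and TXNP6 50.7 and 9.29 CPM at 4 h and 7.62 and 3.04 CPM at 8 h. Without that library their log2 changes went from −2.65 to −1.04 (adjusted p = 0.079) and from −2.50 to −0.79 (adjusted p = 0.073). RPL35AP34 and RPS18P12 went from −2.02 to −0.91 and from −1.75 to −0.58 and stayed called. The last of the 6, ENSG00000231416, had 90.03 and 15.9 CPM at 4 h and 14.8 and 11.2 CPM at 8 h (log2 change −2.05 ± 0.41) and a log2 change of −0.29 without that library (adjusted p = 0.46). The abundant RPL23AP42 had 1417 and 812 CPM at 4 h and 759 and 631 CPM at 8 h (log2 change −0.68 ± 0.13) and was not called without it (log2 change −0.22, adjusted p = 0.061), with a log2 change of −1.03 without replicate 2 of 4 h.

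ATF4 targets, the genes of amino acid supply and stress, fell in 15 of 34 (44.1%, against 13.3% of all genes) and rose in 3 (8.82%), with a median of −0.26. On the spike-in scale 7 were called lower, and 16 were without replicate 1 of 4 h. The same window around a start site held TGATGNAA, the core of the element that ATF4 binds with a C/EBP partner, on either strand in 12 of the 31 members with an annotated promoter (38.7%), and in 4.46% of all genes with one. Of the 14 members with a promoter that fell 5 held it, as did 2 of the 3 that rose. The windows of CEBPG, CHAC1, ASNS and AARS1 are shown with the motif in capitals to set these side by side, each 100 bases long, in the direction of the gene, from RefSeq promoters on GRCh38.p14. They lie at chr19:33374013-33374112 (plus strand), chr15:40953221-40953320 (plus strand), chr7:97872422-97872521 (minus strand) and chr16:70289639-70289738 (minus strand), and in CHAC1 and AARS1 the motif is on the other strand. Between the motif and the annotated start site lie 34 bases in CEBPG, 201 in CHAC1, 60 in ASNS and 179 in AARS1.
CEBPG: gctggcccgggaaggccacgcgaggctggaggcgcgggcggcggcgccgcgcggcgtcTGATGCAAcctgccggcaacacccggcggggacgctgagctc
CHAC1: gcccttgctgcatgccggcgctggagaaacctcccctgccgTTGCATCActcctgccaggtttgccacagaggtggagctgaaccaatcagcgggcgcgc
ASNS: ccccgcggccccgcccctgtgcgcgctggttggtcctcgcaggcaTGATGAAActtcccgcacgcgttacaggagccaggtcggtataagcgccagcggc
AARS1: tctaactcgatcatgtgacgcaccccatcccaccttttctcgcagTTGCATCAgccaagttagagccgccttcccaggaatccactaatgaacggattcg

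Of these 4 genes CEBPG and CHAC1 fell most. CHAC1, which degrades glutathione, had 4.08 and 4.33 CPM at 4 h and 1.24 and 1.07 CPM at 8 h (log2 change −1.85 ± 0.29, adjusted p = 2.5e-05). ASNS, asparagine synthetase, had 319 and 355 CPM at 4 h and 269 and 308 CPM at 8 h (log2 change −0.22 ± 0.07, adjusted p = 0.026) and was not called without replicate 2 of 4 h (adjusted p = 0.23), without replicate 1 of 8 h (0.32) or on the spike-in scale (0.78). AARS1, which charges alanine tRNA, moved the other way, with 124 and 135 CPM at 4 h and 177 and 184 CPM at 8 h (log2 change 0.48 ± 0.07, adjusted p = 1.6e-05). SLC7A11, the cystine transporter, had 69.6 and 73.7 CPM at 4 h and 36.1 and 29.9 CPM at 8 h (log2 change −1.11 ± 0.10, adjusted p = 6e-09), and TRIB3, a pseudokinase that damps ATF4 output, had 65.4 and 67.9 CPM at 4 h and 33.3 and 34.6 CPM at 8 h (log2 change −0.97 ± 0.10). SLC1A5, the glutamine transporter, had 299 and 334 CPM at 4 h and 406 and 437 CPM at 8 h (log2 change 0.41 ± 0.07). ASNS and AARS1, which both hold the motif, were called in opposite directions.

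NRF2 targets, which supply glutathione and thioredoxin and detoxify electrophiles, fell in 13 of 23 (56.5%) and rose in 0, with a median of −0.27. Among the 17 members with at least 50 CPM 11 fell, against 23.7% of all genes of that level. At an unadjusted p under 0.05 edgeR gave 0 rises in the whole list, and DESeq2 called 0. Without replicate 1 of 4 h 13 were called lower as well, and on the spike-in scale 6 were. The antioxidant response element was searched as TGACNNNGC on both strands and was found in 7 of 18 members with an annotated promoter (38.9%) and in 16.1% of all genes with one. Of the 10 members with a promoter that fell 3 held it. TXNRD1 held a second match at another start site, within chr12:104286885-104286984, on the other strand and 93 bases before that site, which is not shown. The windows of TXNRD1 and GCLM, at chr12:104215635-104215734 (plus strand) and chr1:93909431-93909530 (minus strand), are shown with the motif in capitals, on the other strand in GCLM, 90 and 25 bases before the start site.
TXNRD1: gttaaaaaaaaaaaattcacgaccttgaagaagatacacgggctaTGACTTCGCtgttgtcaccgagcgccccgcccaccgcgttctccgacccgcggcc
GCLM: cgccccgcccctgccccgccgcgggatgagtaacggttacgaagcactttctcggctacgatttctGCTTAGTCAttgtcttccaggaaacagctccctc
TXNRD1 (chromosome 12, 104215779 to 104350305), thioredoxin reductase, had 114 and 82.9 CPM at 4 h and 48.1 and 46.3 CPM at 8 h (log2 change −1.06 ± 0.10, adjusted p = 1.7e-08). GCLM, the modifier subunit of the enzyme that starts glutathione synthesis, had 97.4 and 106 CPM at 4 h and 82.6 and 82.1 CPM at 8 h (log2 change −0.30 ± 0.08, adjusted p = 0.0036), which was not called on the spike-in scale (adjusted p = 0.42). OSGIN1 had 9.21 and 8.93 CPM at 4 h and 4.04 and 3.78 CPM at 8 h (log2 change −1.21 ± 0.21). NFE2L2, the gene of NRF2 itself, had 58.8 and 43.95 CPM at 4 h and 28.5 and 26.7 CPM at 8 h (log2 change −0.90 ± 0.12, adjusted p = 1.8e-06). In these 4 genes the libraries of the times did not overlap.

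Genes of cholesterol synthesis and uptake fell in 13 of 26 (50.0%) and rose in 3 (11.5%), with a median of −0.37, and 5 were called lower on the spike-in scale. The sterol response element, searched as TCACNCCAC on both strands, was found in 1 of 19 members with an annotated promoter and in 1.39% of all genes with one. IDI1 (chromosome 10, 1039152 to 1049170), an isomerase early in the pathway, had 59.4 and 50.7 CPM at 4 h and 28.5 and 26.04 CPM at 8 h (log2 change −1.01 ± 0.10, adjusted p = 1.7e-08). INSIG1, which holds SREBP in the endoplasmic reticulum when sterols are plentiful, had 84.2 and 76.3 CPM at 4 h and 40.9 and 45.4 CPM at 8 h (log2 change −0.90 ± 0.08, adjusted p = 7.4e-09). STARD4, a carrier of sterol between membranes, had 15.03 and 12.9 CPM at 4 h and 7.15 and 6.74 CPM at 8 h (log2 change −1.01 ± 0.15). Not all members went down. LBR, a sterol reductase of the nuclear membrane, had 123 and 116 CPM at 4 h and 162 and 162 CPM at 8 h (log2 change 0.43 ± 0.07, adjusted p = 4.9e-05). HMGCS1, the synthase at the start of the pathway, had 80.1 and 87.5 CPM at 4 h and 82.04 and 82.7 CPM at 8 h and was not called (log2 change −0.02, adjusted p = 0.86).

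SR proteins and the kinases that phosphorylate them, which act in splice site choice, fell in 16 of 25 (64.0%) and rose in 2 (8.00%), with a median of −0.24. Without replicate 1 of 4 h 13 were called lower, and on the spike-in scale 7 were. Among the 21 members with at least 50 CPM 14 fell and 2 rose, against 23.7% and 27.5% of all genes of that level. CLK1, a kinase of SR proteins, had 31.7 and 34.05 CPM at 4 h and 18.4 and 15.4 CPM at 8 h (log2 change −0.95 ± 0.12, adjusted p = 1.4e-06), and SRSF4 had 139.5 and 138 CPM at 4 h and 82.7 and 84.95 CPM at 8 h (log2 change −0.73 ± 0.07, adjusted p = 1.9e-08). SRPK1, a kinase of another family that acts on SR proteins, had 70.2 and 67.5 CPM at 4 h and 92.9 and 88.9 CPM at 8 h (log2 change 0.40 ± 0.08, adjusted p = 0.00027). SRSF5 had 79.1 and 84.5 CPM at 4 h and 97.3 and 97.8 CPM at 8 h (log2 change 0.25 ± 0.08), a rise that was not called without replicate 1 of 4 h (adjusted p = 0.12), without replicate 1 of 8 h (0.0542) or without replicate 2 of 8 h (0.068).

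Cytosolic ribosomal proteins fell in 38 of 80 (47.5%) and rose in 0, with small changes around a median of −0.17. At an unadjusted p under 0.05 edgeR gave 0 rises, and DESeq2 called 0. Most of them are abundant, and 37 of the 78 members with at least 50 CPM fell, against 23.7% of all genes of that level. The count was 23 without replicate 1 of 4 h and 5 on the spike-in scale, where the median was −0.01. RPS25 had 480.1 and 316 CPM at 4 h and 292 and 249 CPM at 8 h (log2 change −0.56 ± 0.11) and RPL17 37.9 and 27.3 CPM at 4 h and 22.4 and 22.02 CPM at 8 h (log2 change −0.56 ± 0.13), the largest falls of the list. Both rest on replicate 1 of 4 h and were not called without it (adjusted p = 0.061 and 0.13). EEF1A1, the elongation factor that brings tRNA to the ribosome, had 9692 and 8566 CPM at 4 h and 7157 and 6704 CPM at 8 h (log2 change −0.40 ± 0.06, adjusted p = 2.3e-05), called also without that library (log2 change −0.31) and on the spike-in scale (−0.23). Ribosomal protein genes and EEF1A1 have many near-identical pseudogenes, and their counts are uncertain to that extent.

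Subunits of the respiratory chain that are encoded in the nucleus fell in 36 of 79 (45.6%) and rose in 4 (5.06%), with a median of −0.17. The falls numbered 24 without replicate 1 of 4 h and 3 on the spike-in scale. Among the 75 members with at least 50 CPM 34 fell and 3 rose, against 23.7% and 27.5% of all genes of that level. SDHD, a membrane anchor of complex II, had 65.8 and 43.5 CPM at 4 h and 30.6 and 25.8 CPM at 8 h (log2 change −0.96 ± 0.13), and NDUFB3 of complex I had 85.7 and 52.0 CPM at 4 h and 39.7 and 38.3 CPM at 8 h (log2 change −0.83 ± 0.13). Without replicate 1 of 4 h these changes were −0.63 and −0.42, both called. SDHA, the catalytic subunit of complex II, had 60.6 and 67.7 CPM at 4 h and 75.5 and 88.2 CPM at 8 h (log2 change 0.35 ± 0.09), and was not called without replicate 1 of 4 h (adjusted p = 0.0514) or without replicate 2 of 8 h (0.11).

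The mRNAs encoded by mitochondrial DNA fell in 9 of 12 (75.0%) and rose in 0, with a median of −0.36, and 3 were called lower on the spike-in scale. Rises at an unadjusted p under 0.05 in edgeR numbered 1, and DESeq2 called 0. MT-ATP6, a subunit of ATP synthase, had 1067 and 1180 CPM at 4 h and 713 and 781 CPM at 8 h (log2 change −0.59 ± 0.07, adjusted p = 2.5e-07). MT-CYB of complex III had 2077 and 2481 CPM at 4 h and 1727 and 1844 CPM at 8 h (log2 change −0.35 ± 0.07), a fall of 0.22 without replicate 2 of 4 h that was not called on the spike-in scale (adjusted p = 0.13). MT-ND5 of complex I had 35.95 and 35.4 CPM at 4 h and 23.6 and 24.7 CPM at 8 h (log2 change −0.56 ± 0.11). The nuclear copies MTATP8P1 and MTND1P23, pseudogenes on chromosome 1 with near-identical sequence, had 7592 and 7846 CPM at 4 h and 4583 and 5218 CPM at 8 h and 6487 and 7028 CPM at 4 h and 4286 and 5149 CPM at 8 h. Their log2 changes were −0.66 ± 0.07 and −0.52 ± 0.08, and reads of the mitochondrial genes may have been assigned to them. Of the mitochondrial mRNAs little was labelled: MT-CYB was 1.32% labelled at 4 h and 0.242% at 8 h.

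Of the genes that control transcription elongation and growth, HEXIM1, MYC, MCL1 and ABL1 were named in a fixed list with widely used reference genes. CCNT1 and BRD3 were not in it. They were named by the rule of up to 2 genes per direction from each gene list, here that of P-TEFb, 7SK and BET genes. Of 25 tested members of that list 4 rose and 6 fell, beside 13.6% and 13.3% of all genes tested. On the spike-in scale 8 were called higher and 3 lower. The 12 members with at least 50 CPM included 4 that rose and 3 that fell, against 27.5% and 23.7% of all genes of that level. HEXIM1, an inhibitor of P-TEFb, had 41.2 and 27.5 CPM at 4 h and 27.1 and 26.04 CPM at 8 h (log2 change −0.38 ± 0.14, adjusted p = 0.041), a fall that was not called without replicate 1 of 4 h (adjusted p = 0.85), without replicate 1 of 8 h (0.098), without replicate 2 of 8 h (0.17) or on the spike-in scale (0.37) and was 0.63 without replicate 2 of 4 h. CCNT1, the cyclin of the elongation kinase P-TEFb, had 91.4 and 103 CPM at 4 h and 58.6 and 55.8 CPM at 8 h (log2 change −0.77 ± 0.09, adjusted p = 6.9e-07), and BRD3, a BET protein that binds acetylated histones, had 38.1 and 41.3 CPM at 4 h and 62.2 and 68.1 CPM at 8 h (log2 change 0.72 ± 0.09, adjusted p = 2.7e-06). MYC had 60.3 and 46.96 CPM at 4 h and 49.5 and 33.6 CPM at 8 h, so that the times overlap, with a log2 change of −0.37 ± 0.13 (adjusted p = 0.03) that was not called without replicate 1 of 4 h (adjusted p = 0.41), without replicate 2 of 8 h (0.57) or on the spike-in scale (0.3), and of −0.68 without replicate 1 of 8 h. MCL1, which protects cells from apoptosis, had 263 and 225 CPM at 4 h and 221 and 198 CPM at 8 h (log2 change −0.22 ± 0.07, adjusted p = 0.028) and was not called without replicate 1 of 4 h (adjusted p = 0.42), without replicate 2 of 8 h (0.3) or on the spike-in scale (0.76). ABL1, the kinase gene of the fusion, had 115 and 117 CPM at 4 h and 142 and 135 CPM at 8 h (log2 change 0.25 ± 0.07, adjusted p = 0.011) and was not called without replicate 1 of 8 h (adjusted p = 0.088).

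Of 22 tested glycolysis genes 6 rose (27.3%) and 5 fell (22.7%), with 4 and 3 called without replicate 1 of 4 h and 6 and 2 on the spike-in scale. Of all genes tested 13.6% rose and 13.3% fell. Among the 14 glycolysis genes with at least 50 CPM 3 rose and 3 fell, against 27.5% and 23.7% of all genes of that level. The glucose transporters SLC2A3 and SLC2A1 are members of the glycolysis list. TXNIP was named in the fixed list, and ARRDC4 in the list of MYC, MAX and MXD genes. TXNIP, which limits glucose uptake, had 185 and 164 CPM at 4 h and 124 and 120.4 CPM at 8 h (log2 change −0.51 ± 0.08), and its relative ARRDC4 had 13.8 and 11.5 CPM at 4 h and 5.60 and 5.42 CPM at 8 h (log2 change −1.20 ± 0.18, adjusted p = 1.8e-05). Of the glucose transporters, SLC2A3 had 51.96 and 49.7 CPM at 4 h and 97.98 and 96.7 CPM at 8 h (log2 change 0.94 ± 0.08, adjusted p = 6.5e-09) and SLC2A1 had 252 and 247 CPM at 4 h and 180.3 and 173 CPM at 8 h (log2 change −0.50 ± 0.06, adjusted p = 1.6e-06). SLC2A3 rose and SLC2A1 fell (log2 change −0.33 on the spike-in scale), each with libraries that did not overlap. Of the other glycolysis genes PFKP rose by 0.72 and ALDOC fell by 0.58. GAPDH had 2555 and 2832 CPM at 4 h and 2669 and 2706 CPM at 8 h and was not called (adjusted p = 0.98). ACTB had 1994 and 2008 CPM at 4 h and 1762 and 1907 CPM at 8 h and was not called (log2 change −0.13, adjusted p = 0.14), and neither was HSPA5, the main chaperone of the endoplasmic reticulum, with 393 and 448 CPM at 4 h and 393 and 428 CPM at 8 h (adjusted p = 0.76).

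The neighbouring intervals of the chase share the libraries of 4 h or of 8 h with the comparison and are given only beside it. From 2 to 4 h 7.35% of the genes tested rose and 5.88% fell, and from 8 to 12 h 5.55% rose and 4.64% fell. CBFA2T3 changed by 0.33 from 2 to 4 h (adjusted p = 0.063), by 1.62 from 4 to 8 h and by 0.72 from 8 to 12 h (adjusted p = 1.7e-05). TFRC changed by 0.09, 0.76 and 0.65 over the same intervals (adjusted p = 0.39, 3.1e-09 and 6.8e-07). MYB had its largest change of the 3 before 4 h, with 1.05, 0.43 and −0.30. CEBPG had −0.34, −1.39 and −0.24, the last not called (adjusted p = 0.21). DDIT4 had −0.73, −1.32 and 0.11, and its level of 23.6 CPM at 8 h was below the 77.8 CPM of the library without 4sU. RPS24P6 had −0.16 from 2 to 4 h, not called, then −4.67, then −0.74.

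**Figure D4:**
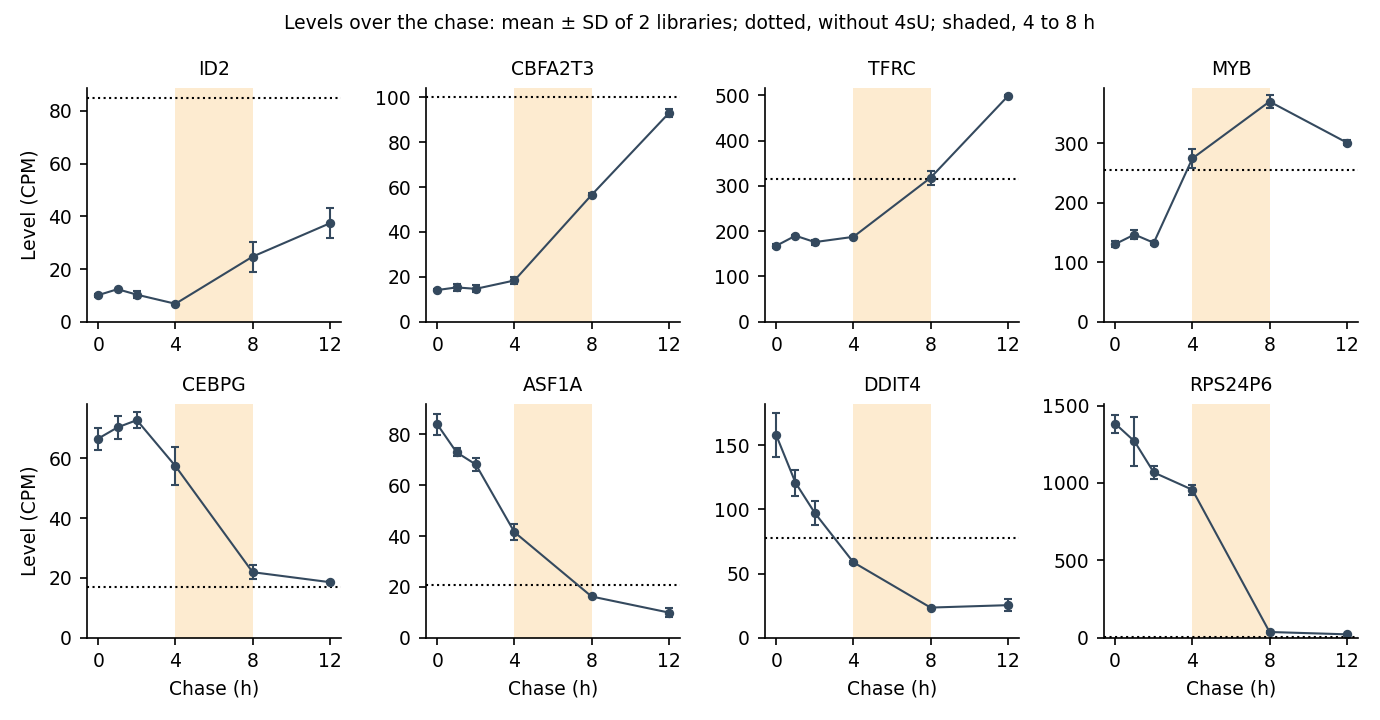
Level (CPM, mean ± SD of 2 libraries) of 8 genes over the chase in hours, with the single library without 4sU as a dotted line and the interval from 4 to 8 h shaded. Of the upper row ID2, CBFA2T3 and TFRC rise further after 8 h while MYB falls, and in the lower row RPS24P6 drops from a mean of 956 to 37.7 CPM.

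What the called genes had in common outside the comparison was described for the genes with a mean of at least 5 CPM, 2020 that rose and 1802 that fell. Of the genes that rose, 67.5% had been at least 1.5-fold lower at 0 h of chase than in the library without 4sU, against 30.3% of all 9649 genes of that level. Of the genes that fell, 57.5% had been at least 1.5-fold higher at 0 h than without 4sU, against 26.2%. There is 1 library without 4sU, and these shares carry no test. They are relative to the bulk of human genes. The library without 4sU had 9.68 human counts per spike-in count, against 12.98 and 13.02 at 0 h, and the shares were not taken on the spike-in scale.

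The counts that the authors call labelled can be set apart from the rest. Their median log2 change was −0.76 in the genes that rose, −1.18 in those that fell and −0.90 in all genes of that level. Unlabelled counts, the total less the labelled ones, were higher at 8 h in all 2020 genes that rose and in 364 (20.2%) of those that fell, against 75.6% of all. They stem from RNA made before the pulse, RNA made after it and molecules without a detected conversion, which cannot be told apart here. Since total counts are the sum of both, these values are a description and no further test.

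Single genes differed in which part moved. In TFRC labelled counts went from 57.9 to 36.4 CPM and unlabelled ones from 129.5 to 281 CPM (means of 2 libraries). KLF1 had few labelled counts, 7.85 and 1.93 CPM, and its unlabelled part went from 70.0 to 118 CPM. UCK2 lost labelled counts, from 148 to 50.6 CPM, while its unlabelled part was 129.6 and 134 CPM. SLC2A1 was like it, with 104 and 31.1 CPM labelled and 146 and 145 CPM unlabelled. In CEBPG both parts were lower at 8 h: labelled counts were 16.2 and 1.95 CPM, and unlabelled ones 41.1 and 19.98 CPM. The same holds for CLK1, with 7.96 and 0.793 CPM labelled and 24.9 and 16.1 CPM unlabelled. Labelled counts were higher at 8 h in GTF2H4 (5.71 and 7.97 CPM) and RPL38P5 (5.125 and 7.14 CPM), both among the 10 largest rises. The median log2 change of labelled counts in all genes with at least 5 CPM was −0.90. Why labelled counts were higher in these 2 genes was not tested.

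**Figure D5:**
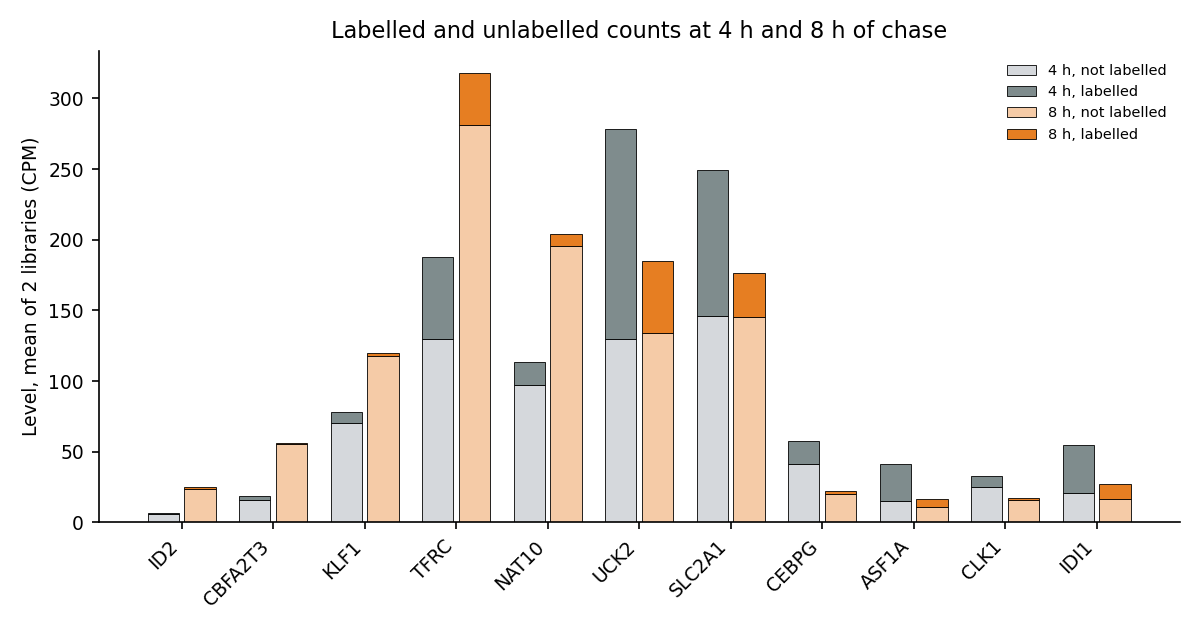
Labelled (dark) and unlabelled (light) parts of the level of 11 genes at 4 h (grey) and 8 h (orange) of chase, as stacked bars of mean CPM over 2 libraries. In TFRC and NAT10 the unlabelled part is taller at 8 h, in UCK2 and SLC2A1 it is about as tall at both times and the labelled part is shorter, and in CEBPG, CLK1 and IDI1 both parts are shorter.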

How the data were processed

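The authors deposited 3 tables of raw counts per gene: counts of all human reads, counts of the human reads they call nascent (labelled here) and counts of Drosophila spike-in reads. RNA was alkylated with iodoacetamide and made into QuantSeq 3′ mRNA libraries with a 5% S2 spike-in, per the labels' protocols. Tools and builds listed in the submitters' processing notes are Trim Galore 0.6.5, bcl2fastq 2.17.1.14 and bedtools, with hg38 for human and dm6 for Drosophila. How reads were aligned and counted, whether strand was used, and how many conversions define a nascent read is not given in the sources used here.

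Libraries were grouped by their titles. Symbols for 40541 of 59204 gene IDs came from the table of gene names and 107 from GENCODE 29, while 15190 had no symbol and 3366 were not matched. Coordinates are GENCODE 29 gene spans on GRCh38, counted from 1. Total counts of the 13 libraries were fitted as 7 groups with edgeR 4.0.16 in R 4.3.3 (filterByExpr, TMM, two-sided quasi-likelihood F-test, p-values adjusted by Benjamini-Hochberg over all genes tested, false discovery rate 0.05), and 8 h was compared with 4 h. The SE is the log2 change divided by the root of the F statistic. The test was tried on simulated counts of all 13 libraries, with 1 mean per gene and the fitted spread, where 15486 genes passed the filter. Only 200 genes, each with a mean of at least 5 CPM, were changed. Of these it recovered 76% of 1.5-fold and 97% of 2-fold changes, with 9 false calls. The simulation held no wider spread at 4 h and no correlation of same-numbered replicates, so its rates need not hold for these data. CPM are counts scaled to a TMM effective library size of 1000000, and log2 ratios of labelled or unlabelled CPM and of 0 h over the library without 4sU used a pseudocount of 0.5.

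The names printed follow a rule: the 10 largest rises and falls among called genes with a mean of at least 5 CPM and libraries that do not overlap, the 5 most abundant of each with a change of at least 0.5, up to 2 per direction from each of 45 gene lists, and a fixed list of single genes. Further members of lists were named after values were seen. The lists and members were chosen with earlier results of these data known. Alternatives were DESeq2 1.42.0 (size factors, and its own test), spike-in totals as library sizes, other filters and library sets, a replicate block, and leaving out each of the 4 libraries. A fit without annotated pseudogenes and a replicate block of 4 and 8 h alone were chosen after seeing the data. Promoter windows, 250 bases before to 50 after a start site, are from RefSeq on GRCh38.p14. Python 3.11.15, scipy 1.17.1 and matplotlib 3.10.9 were used.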

Additional observations from a re-analysis of the deposited data

How the results depend on the processing

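Against 2216 genes higher and 2160 lower, leaving out 1 of the 4 libraries gave 1361 to 2147 higher and 1378 to 2046 lower. Spike-in totals as library sizes gave 3056 higher and 784 lower. DESeq2 called 1781 and 1574, and the 5 other settings without a block that were planned gave 1844 to 2271 higher and 1539 to 2178 lower. With spike-in totals 4.82% of all genes tested were called lower. Of the lists, 7 of 34 ATF4 targets, 6 of 23 NRF2 targets, 5 of 26 cholesterol genes and 7 of 25 SR factors and kinases were. So were 5 of 80 ribosomal proteins, 3 of 79 respiratory chain subunits, 3 of 12 mitochondrially encoded mRNAs and 1 of 33 globin or red cell genes. Without replicate 1 of 4 h 5 nonsense-mediated decay factors were called higher and 23 ribosomal proteins lower. The cause was not tested.

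Same-numbered libraries deviated together at 4 and 8 h, where replicate differences correlated at 0.439, but not at every pair of times (−0.143 to 0.196 for the others), and no label says that a number marks a shared culture or day. With the replicate number as a block over the 12 chase libraries 2377 genes were higher and 2305 lower, and with a block of the libraries of 4 and 8 h alone, a fit chosen after seeing the data, 2469 and 2445. No printed gene lost its call under either block. With the 4 libraries alone, without a block, MCL1 (adjusted p = 0.11), MYC (0.16), ASNS (0.053) and HEXIM1 (0.14) were not called, and in the DESeq2 test MYC (0.18) and HEXIM1 (0.082) were not. Genes that were not called changed sign. HSPA5 went from −0.03 to 0.13 with spike-in totals, and over the fits that leave out 1 library it ranged from −0.128 to 0.063. HMGCS1 went from −0.02 to 0.14 with spike-in totals and ranged from −0.088 to 0.040. ACTB went from −0.13 to 0.043 with spike-in totals. GAPDH went from −0.0032 to 0.00093 with DESeq2 size factors, 0.00094 in the DESeq2 test, 0.165 with spike-in totals, 0.0013 with the 4 libraries alone, 0.0016 with the 12 chase libraries and 0.00040 with the replicate block, and it ranged from −0.076 to 0.074 when 1 library was left out. Without annotated pseudogenes, a setting chosen after seeing the data, 2148 genes were higher and 2083 lower. A gene with 0 counts in a library is only known to lie under the floor of 3 counts.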

Other observations

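Of 32 tested immediate early genes, a class induced quickly by growth factors and stress, 5 rose (15.6%) and 9 fell (28.1%), with a median of −0.23, and 4 and 4 were called without replicate 1 of 4 h and 8 and 5 on the spike-in scale. IER2 had 270.1 and 301 CPM at 4 h and 392 and 423 CPM at 8 h (log2 change 0.51 ± 0.07, adjusted p = 3.5e-06 in edgeR) and IER3 had 47.05 and 54.7 CPM at 4 h and 71.5 and 78.5 CPM at 8 h (log2 change 0.56 ± 0.09). FOS, at low level, had 1.51 and 0.619 CPM at 4 h and 0.0778 and 0.246 CPM at 8 h (log2 change −2.71 ± 0.71) and was not called without replicate 1 of 4 h (adjusted p = 0.17) or without replicate 1 of 8 h (0.071). Of 21 tested NF-kB targets 6 rose (28.6%) and 0 fell (at an unadjusted p under 0.05 3 fell in edgeR, and DESeq2 called 0), and 2 rose without replicate 1 of 4 h. Of 17 TGF-beta and BMP feedback genes 4 rose (23.5%) and 1 fell (5.88%). ID1, a relative of ID2, had 35.3 and 39.2 CPM at 4 h and 58.8 and 62.8 CPM at 8 h (log2 change 0.71 ± 0.09, adjusted p = 1.6e-06), and SPRED2, an inhibitor of RAS signalling, had 42.2 and 22.99 CPM at 4 h and 16.1 and 12.8 CPM at 8 h (log2 change −1.18 ± 0.19), −0.67 without replicate 1 of 4 h.

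Hosts of small nucleolar RNAs fell in 9 of 24 (37.5%) and rose in 2 (8.33%), with 7 called lower without replicate 1 of 4 h and 3 on the spike-in scale. Most are abundant: 8 of the 21 with at least 50 CPM fell, against 23.7% of all genes of that level. TAF1D, a host gene that also encodes a subunit of the factor that starts ribosomal RNA transcription, had 559.7 and 552 CPM at 4 h and 360.0 and 351 CPM at 8 h (log2 change −0.64 ± 0.06, adjusted p = 1.6e-08). Of the stress genes of the endoplasmic reticulum 4 of 29 rose (13.8%) and 7 fell (24.1%). Called lower without replicate 1 of 4 h were 3, and on the spike-in scale 0 were in edgeR (2 at an unadjusted p under 0.05). DESeq2 with its own size factors called 7 lower. XBP1, a transcription factor of that response, had 59.1 and 57.2 CPM at 4 h and 43.2 and 41.98 CPM at 8 h (log2 change −0.45 ± 0.09), not called on the spike-in scale (adjusted p = 0.1). SMOX, spermine oxidase, had 4.83 and 5.57 CPM at 4 h and 12.2 and 12.2 CPM at 8 h (log2 change 1.24 ± 0.20, adjusted p = 4.9e-05). SQSTM1, the autophagy receptor p62, had 243 and 263 CPM at 4 h and 164 and 184 CPM at 8 h (log2 change −0.54 ± 0.07, adjusted p = 2.5e-06), and SLBP, which binds histone mRNAs, had 108 and 80.8 CPM at 4 h and 61.3 and 55.95 CPM at 8 h (log2 change −0.69 ± 0.10). The deadenylase PARN had 30.4 and 27.6 CPM at 4 h and 44.5 and 47.6 CPM at 8 h (log2 change 0.67 ± 0.11), and CNOT4, of the CCR4-NOT complex, had 73.3 and 70.7 CPM at 4 h and 48.1 and 42.3 CPM at 8 h (log2 change −0.67 ± 0.09). Of 413 tested ZNF genes 36 rose (8.72%) and 53 fell (12.8%), with 18 and 33 called without replicate 1 of 4 h and 52 and 18 on the spike-in scale. Markers of granulocytes and monocytes were called in 0 of 11 tested, and those of lymphocytes in 0 of 5. In edgeR at an unadjusted p under 0.05 there were 1 and 0 higher and 2 and 0 lower in the respective lists, and DESeq2 called 0 and 0 higher and 0 and 0 lower.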
